A study of Danio rerio with 2 samples.

Results

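Transcription factor genes of the telencephalon, namely emx1, emx2, emx3, tbr1b and eomesa, were followed in whole brain of male and female zebrafish. They were taken by gene symbol from the deposited count table, where each has 1 row, and make up 5 of its 27095 genes. They were chosen with their values in these libraries known, so their differences between the libraries are given as a description. The male library came from wild-type males and the female library from wild-type females, each from the pooled brains of 5 fish. The labels name neither a strain nor an age. Each sex is represented by a single library, so the spread between replicates is unknown, no test was possible and none of the differences below has a replicate check. Per the labels' protocols each library had a lane of its own, so sex, pool and lane cannot be told apart.

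The telencephalon is the most anterior part of the brain and has a dorsal division, the pallium, and a ventral one, the subpallium. The emx genes encode homeobox factors known from patterning of the dorsal telencephalon, and emx2 is also known from hair cells of the inner ear and lateral line. The T-box gene tbr1b is the counterpart of mouse Tbr1, a factor of young glutamatergic neurons of the cortex, and eomesa is a counterpart of mouse Eomes (Tbr2), known from intermediate progenitors of the cortex and mitral cells of the olfactory bulb. In whole-brain RNA, fewer cells of a type and less RNA per cell cannot be told apart.

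In all, the male library held 62248792 estimated reads and the female library 64300988. Levels are in CPM, which are read counts scaled by size factors and given relative to the mean library total, per 1e6 reads. A gene with a mean of at least 1 CPM over both libraries is called measured here, and 14756 genes were. Ratios are log2 of male over female, with 95% intervals that cover counting error only. Genes known from neurons in general stood at a summed 5257 CPM in the male library against 5107 CPM in the female one over 9 matched genes, with a median log2 ratio of 0.01. Markers of other tissues differed between the libraries. The summed level of 7 liver genes was 38.8 CPM in the male library against 1464 CPM in the female one. Of that sum, vtg1 gave 3.08 CPM in the male library against 899 CPM in the female one. The gene vtg2 gave 0.261 CPM in the male against 374 CPM in the female library. The listed apoa1bp, now named naxe, gave 18.5 CPM in the male against 21.2 CPM in the female library. All 7 had ratios below 0. The sum of 8 oocyte genes was 2.18 CPM in the male against 74.1 CPM in the female library, with bmp15 listed at 0 in both. The sum over 18 photoreceptor genes was 116 CPM in the male library against 57.5 CPM in the female one.

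Of the 5 genes, 4 were higher in the male library by at least 2-fold with an interval that excludes 1, and none in the female library. The gene not called was emx2, whose levels in the libraries were close. The same rule called 1.06% of all measured genes higher in the male library and 2.70% higher in the female library. With the trend of the ratio on expression level removed, 203 genes were called higher in the male library against 328 in the female one. Without that step the calls were 156 in the male library against 399 in the female one. At 3-fold, 2 of the 5 were higher in the male library, against 0.366% of measured genes in that direction and 1.57% in the other. At a mean of at least 5 CPM, 2 of the 3 genes left were, against 0.484% of genes measured at that minimum higher in the male and 0.919% higher in the female library. Since the genes were chosen on this contrast, nothing is read from these shares. Their reads summed to 12568 in the male library against 6860 in the female one, or 205 CPM in the male against 105 CPM in the female library. All 5 reached the 1 CPM minimum as a mean over the libraries, but emx3 passed it through the male library and lay below it in the female one.

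**Figure D1:**
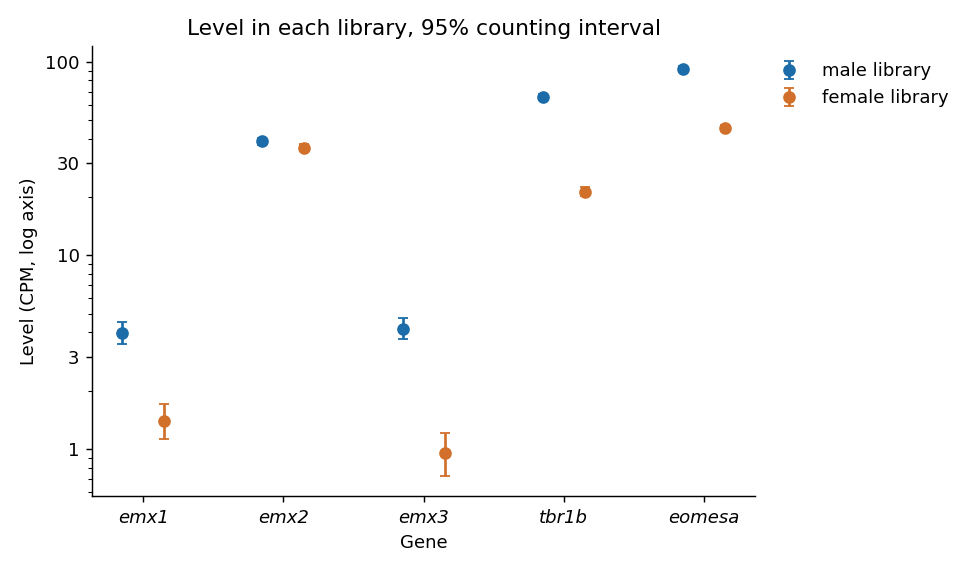
Level of each gene (CPM, log axis) in the male library and the female library, with 95% exact Poisson intervals for counting error. The male point lies well above the female point for 4 genes, while those of emx2, 38.8 CPM (male) and 36.0 CPM (female), nearly coincide. CPM are not corrected for transcript length, so heights compare libraries within a gene and not genes with each other.

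The 3 emx genes differed in their ratios. The gene emx3 (chromosome 14, 27374502 to 27386142, minus strand of Zv9, the build of all positions here) had 257 reads in the male library against 62 in the female one, or 4.19 CPM in the male (interval 3.69 to 4.73) against 0.950 CPM in the female library (0.729 to 1.22). Its ratio was the highest of the 5, at 4.38-fold (interval 3.33 to 5.91, log2 ratio 2.13). The gene emx1 (chromosome 13, 14865411 to 14871679, plus strand) had 245 reads in the male library against 91 in the female one, or 3.99 CPM in the male (3.51 to 4.53) against 1.39 CPM in the female library (1.12 to 1.71). It was 2.85-fold higher in the male library (interval 2.24 to 3.68, log2 ratio 1.51). The few reads of emx1 and emx3 make their intervals the widest of the 5. For both, the levels of the libraries lie apart beyond counting error.

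The gene emx2, on the plus strand of the same chromosome 13 (19367592 to 19372177), 4496 kb from emx1, had 2381 reads in the male library against 2351 in the female one. Its levels of 38.8 CPM (interval 37.3 to 40.4) in the male library against 36.0 CPM (34.6 to 37.5) in the female one have intervals that overlap. The ratio was 1.08 (interval 1.02 to 1.14, log2 ratio 0.11), an interval that excludes 1 though the intervals of the levels overlap. Of measured genes, 27.7% had a ratio as high or higher. Scaled by library totals, emx2 had a log2 ratio of 0.07, with an interval that no longer excluded 1. The makeup of emx reads therefore differed between the libraries. The share of emx2 among all emx reads was 82.6% (exact Clopper-Pearson interval 81.2 to 84.0) in the male library against 93.9% (92.9 to 94.8) in the female one. The share of emx3 was 8.91% (7.90 to 10.01) in the male library against 2.48% (1.90 to 3.16) in the female one, and that of emx1 was 8.50% in the male (7.51 to 9.58) against 3.63% in the female library (2.94 to 4.44). These shares compare the libraries and not the abundance of the transcripts, since they are not corrected for length.

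Of the T-box pair, tbr1b (chromosome 9, 52776692 to 52782926, minus strand) had 4035 reads in the male library against 1393 in the female one. The counts correspond to 65.8 CPM (interval 63.7 to 67.8) in the male library against 21.3 CPM (20.2 to 22.5) in the female one. In the male library tbr1b was 3.08-fold higher (interval 2.90 to 3.28, log2 ratio 1.62). Its paralog tbr1a is listed at 0 in both libraries. So are pax6b, en2a and camk2a, genes known from brain, so a listed 0 is not read as absence of the transcript here.

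The gene eomesa (chromosome 19, 839733 to 845977, minus strand) had 5650 reads in the male library against 2963 in the female one. Its levels were 92.1 CPM (interval 89.7 to 94.5) in the male library against 45.4 CPM (43.8 to 47.1) in the female one. The ratio of 2.03-fold (interval 1.94 to 2.12, log2 ratio 1.02) put it just inside the 2-fold rule, and its interval reaches under 2. Scaled by library totals the log2 ratio was 0.98, and with the expression trend removed it was 0.99, so the call was lost under both. Its paralog eomesb, on chromosome 16, was close to level, with 1258 reads in the male library against 1439 in the female one (log2 ratio -0.11, interval -0.22 to 0.0048). There were 4.49 eomesa reads per eomesb read in the male library against 2.06 in the female one, a 2.18-fold difference (interval 1.996 to 2.38).

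**Figure D2:**
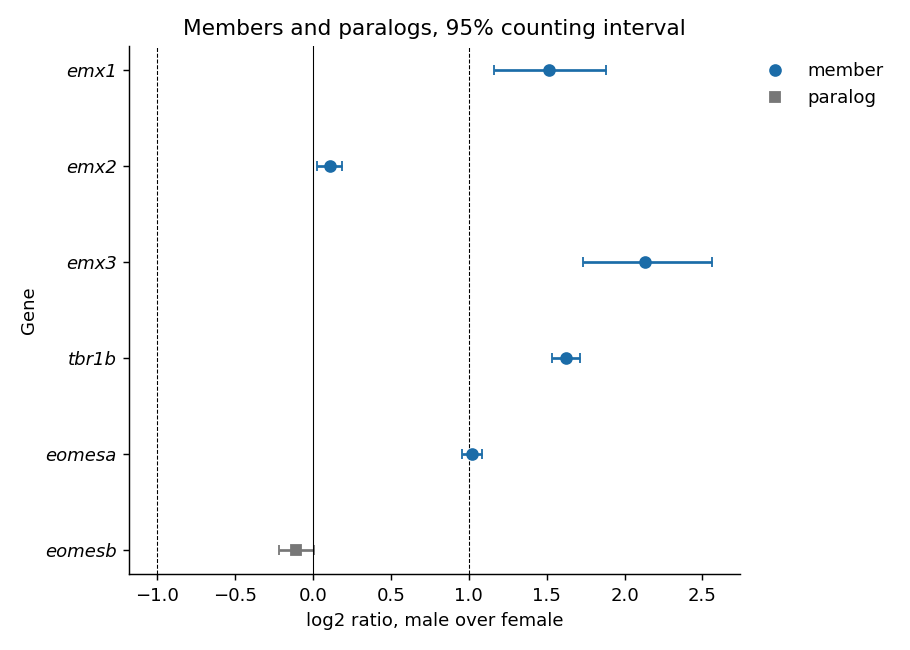
Log2 ratio of male over female for the 5 genes (circles) and the paralog eomesb (square), with 95% counting intervals and dashed lines at 2-fold. The genes emx2 and eomesb sit near 0 at 0.11 and -0.11, while emx3 is farthest to the right at 2.13. The gene tbr1a is listed at 0 and is not drawn.

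The 5 genes also differed among themselves. Their order by ratio was emx3, tbr1b, emx1, eomesa and emx2. For each of the 10 pairs, the ratio of one gene to the other within a library was compared between libraries. The scaling does not touch this measure. In 9 pairs the exact interval, which covers counting error only, excluded 1. The genes were chosen and ordered by these same values, and each sex has 1 library, so the steps below are a description. The pair that could not be separated by counting error was tbr1b and emx1, neighbours in the order (ratio of ratios 1.08, interval 0.830 to 1.39). The step between emx3 and tbr1b was beyond counting error (1.43, interval 1.07 to 1.93), as was that between emx1 and eomesa (1.41, interval 1.10 to 1.82) and that between eomesa and emx2 (1.88, interval 1.75 to 2.03). Reads of tbr1b per read of eomesa were 0.714 in the male library against 0.470 in the female one, a 1.52-fold difference (interval 1.41 to 1.64). The widest gap was between emx3 and emx2, with 0.108 emx3 reads per emx2 read in the male library against 0.0264 in the female one (4.09-fold, interval 3.07 to 5.52).

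**Figure D3:**
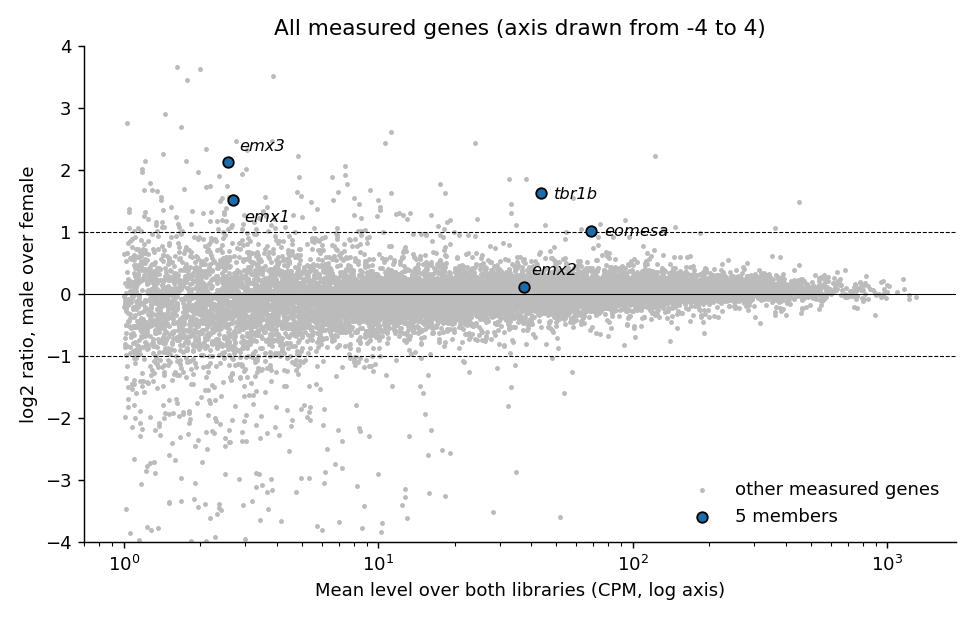
Log2 ratio of male over female against mean level (CPM, log axis) for all measured genes (grey) and the 5 genes (blue), with dashed lines at 2-fold and the vertical axis drawn from -4 to 4. At their level tbr1b and eomesa lie at the upper edge of the cloud of points, emx1 and emx3 lie where fewer reads widen the cloud, and emx2 lies inside it at 0.11.

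Other transcription factors known from the telencephalon mostly had ratios above 0 but under 2-fold. Of 17 further pallial factors, 16 were measured and 13 had a ratio above 0, but none reached 2-fold, and the median log2 ratio was 0.15. Over all measured genes 49.7% had a ratio above 0 and the median was 0.00. The pallial factor with the highest mean level was zbtb18, a zinc finger repressor gene, at 19879 reads in the male library against 18670 in the female one (log2 ratio 0.18, interval 0.15 to 0.21). The list's highest ratios, named after their values were seen, were those of the basic helix-loop-helix gene bhlhe22 (5663 reads in the male library against 3470 in the female one, log2 ratio 0.80, interval 0.73 to 0.86) and of fezf2, a zinc finger factor of forebrain neurons (520 male and 322 female reads, 0.78, interval 0.58 to 0.99). Also named after their values were seen, the list's neurod genes stood at -0.04 (neurod2), 0.48 (neurod6a) and 0.14 (neurod6b). The lowest pallial value was that of nr2f1b, at 737 reads in the male library against 909 in the female one (log2 ratio -0.21).

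Of 22 subpallial factors, 21 were measured, 18 had a ratio above 0 and 2 were higher in the male library, with a median log2 ratio of 0.36. These were lhx6, a LIM homeobox gene of ventral interneurons in mouse, with 1164 reads in the male library against 502 in the female one (log2 ratio 1.30, interval 1.15 to 1.46), and its relative lhx8a with 332 male and 153 female reads (1.20, interval 0.93 to 1.49). The listed dlx interneuron factors, named after their values were seen, stood at 0.66 (dlx1a), 0.69 (dlx2a), 0.85 (dlx2b), 0.46 (dlx5a) and 0.42 (dlx6a). The lowest subpallial value was that of gsx1, at 757 reads in the male library against 1191 in the female one (log2 ratio -0.56). Of 11 genes of telencephalic neurons that are not transcription factors, known mostly from mammals, 10 matched a row, 8 were measured and none reached 2-fold (median 0.19). The highest mean in that list was that of the cannabinoid receptor gene cnr1, with 9814 reads in the male library against 6766 in the female one (log2 ratio 0.63, interval 0.58 to 0.67).

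Factors of early forebrain patterning had a median log2 ratio of -0.07 over 10 measured members of 12, with none reaching 2-fold. Its member with the highest mean was otx2 at 5865 reads in the male library against 6232 in the female one (log2 ratio 0.00, interval -0.05 to 0.05). Among lists of more posterior regions, the diencephalic and midbrain ones had medians near 0 as well. Hindbrain and cerebellar factors lay mostly below 0. Single genes of these lists were called in each direction. The median was 0.04 over 14 diencephalic factors, of which 7 were above 0 and none reached 2-fold, with the Wnt effector gene tcf7l2 at -0.02. It was 0.03 over 12 measured midbrain factors of 14, of which 7 were above 0, and foxa2, a forkhead gene of the floor plate, was higher in the female library at the 2-fold line (88 reads in the male library against 188 in the female one, -1.002, interval -1.39 to -0.63). It was -0.12 over 15 measured hindbrain and cerebellar factors of 16, of which 3 were above 0 and 12 below, down to phox2a at -0.51, and hoxb1b was higher in the male library (138 male and 69 female reads, 1.08, interval 0.66 to 1.53). Of the 88 measured genes in these 6 regional lists, 3 had a ratio as high as that of eomesa and none one as high as that of emx1. Of all measured genes, 0.996% had a ratio at least as high as that of eomesa. For emx1 that share was 0.434%. Nothing is read from these counts and shares, since the 5 genes were chosen on this contrast. Among other T-box genes, 8 of the list were measured with a median of 0.11 (-0.40 over those that reached 5 CPM), and tbx1 was higher in the male library at 137 male against 55 female reads (1.397, interval 0.94 to 1.88). With 2.23 CPM in the male library against 0.843 CPM in the female one, tbx1 passed the 1 CPM minimum through the male library.

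**Figure D4:**
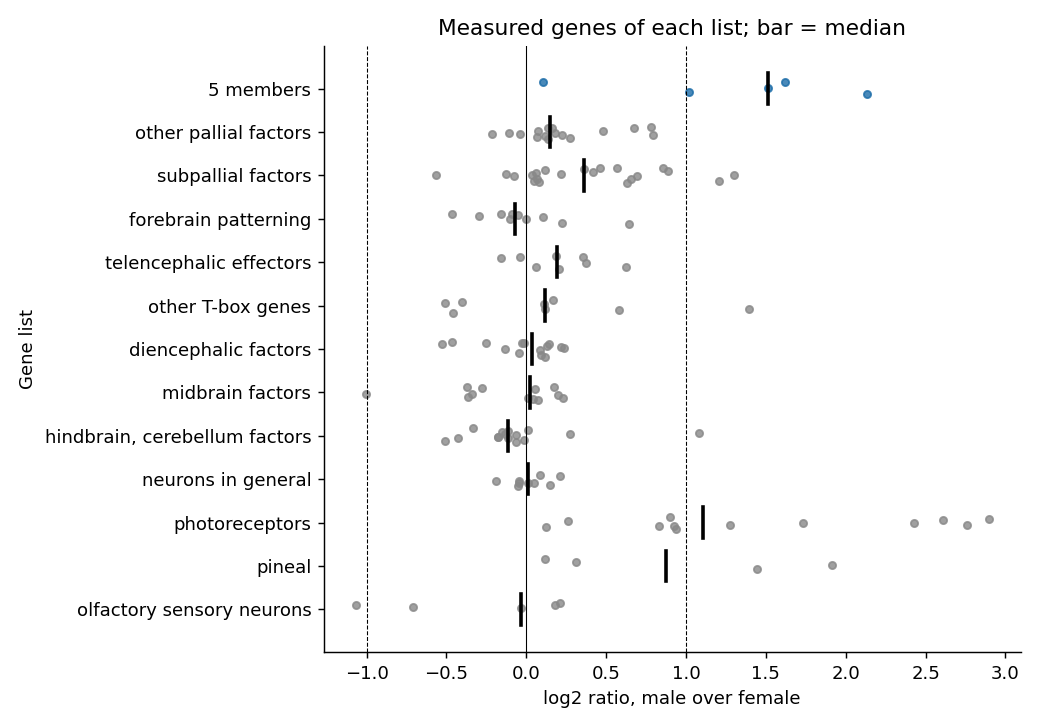
Log2 ratio of male over female for each measured gene (points) of the 5 genes and of 12 other lists, with the list median as a bar and dashed lines at 2-fold. The 5 genes, chosen with their values known, have a median of 1.51, against 0.15 for other pallial and 0.36 for subpallial factors. Photoreceptor genes have a median of 1.10. Liver and oocyte genes, with medians of -3.59 and -5.36, are not drawn.

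Over 2 libraries a pattern is a single ratio, so likeness was measured as the distance to the median log2 ratio of the 5 genes, 1.51. Among measured genes of the lists, the 3 nearest were the pineal opsin gene exorh (1.45, 2971 reads in the male library against 1159 in the female one), tbx1 and lhx6. Many genes of the whole table can share such a value.

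Markers of photoreceptors, the pineal and olfactory sensory neurons differed in both directions. All 12 measured photoreceptor genes of 18 were above 0 and 6 were higher in the male library. Among these 6, the rod opsin gene rho had 1179 reads in the male library against 205 in the female one (log2 ratio 2.61, interval 2.397 to 2.83). Also among them, opn1lw1, opn1lw2 and crx passed the 1 CPM minimum through the male library and lay below it in the female one. Measured but under 2-fold were, for example, sagb (1428 male and 1393 female reads, 0.12) and gnat2 (0.26). Under the minimum, grk1a stood at -0.09. The genes pde6a and pde6b are listed at 0 in both libraries, and opn1mw1 is listed with 11 reads in the male library against 0 in the female one. The 4 pineal genes summed to 177 CPM in the male library against 117 CPM in the female one, with a median log2 ratio of 0.88. Of these, 2 were called higher in the male library, exorh and aanat2. The melatonin synthesis enzyme gene aanat2 had 720 male and 203 female reads (1.91, interval 1.69 to 2.15). The others were under 2-fold, with parapinopsinb at 0.31. The listed asmt matched only by synonym a gene now named asmt2, which stood at 0.12. Olfactory sensory neuron genes summed to 231 CPM in the male library against 225 CPM in the female one over 9 genes, with adcy3b listed at 0 in both. Most of each sum came from gnal and adcy3a. The gene gnal had 108 CPM in the male against 111 CPM in the female library (log2 ratio -0.04). The gene adcy3a had 113 CPM in the male against 97.1 CPM in the female library (0.21). Of the 5 measured olfactory genes, 2 were above 0. The olfactory marker protein gene ompa was higher in the female library, with 132 reads in the male library against 295 in the female one (-1.07, interval -1.38 to -0.77). Its paralog ompb had 7 reads in the male library against 100 in the female one. Also measured were s100z at -0.71 and cnga4 at 0.18. Under 1 CPM, trpc2b had 29 male against 73 female reads, and cnga2a had 12 male against 24 female reads. The part of these tissues and of the liver and oocyte genes in the values of the 5 genes was not tested.

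Most genes beside the 5 on the chromosome had ratios below 0. Within 200 kb there were 20 measured genes with a single row, with a median log2 ratio of -0.11, and no row of the table overlapped any of the 5. The 10 genes around emx3 ranged from -0.47 to 0.16, the 2 around emx1 from -0.40 to -0.06, and the 2 around tbr1b from -0.65 to 0.13. Around eomesa, 5 genes ranged from -1.57 to -0.0029, where slc44a4, a choline transporter-like gene, was higher in the female library with 102 reads in the male library against 322 in the female one. The 1 gene beside emx2, eif3s10, stood at -0.02.

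**Figure D5:**
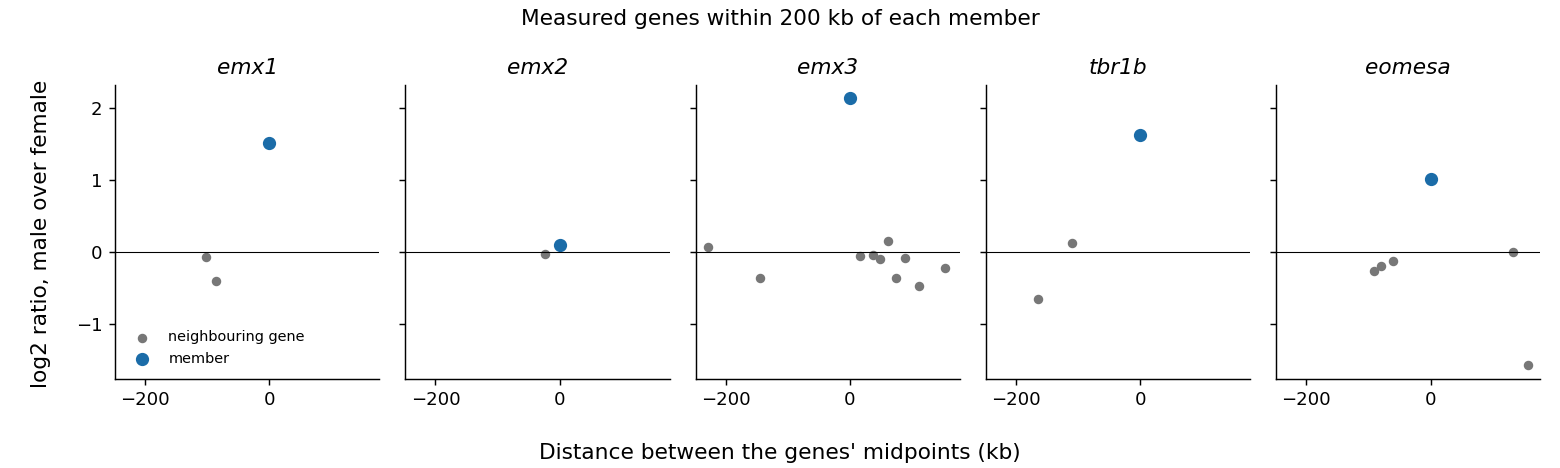
Log2 ratio of male over female for each of the 5 genes (blue, at distance 0) and for measured genes within 200 kb (grey), against the distance between midpoints in kb. Grey points lie under the blue point in each panel, the lowest being slc44a4 at -1.57 near eomesa.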

How the data were processed

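Whole-brain RNA gave 1 library from males and 1 from females. Per the labels' protocols, RNA with an integrity number of 8 to 9 (3 µg per library) was sequenced as 51 bp single reads. TopHat 1.4.1, DESeq and the build Zv9 are named in the submitters' processing notes, without their roles. How reads were counted (program, annotation, strand, reads with several matches) is not given in the sources used here, so paralogs could share reads. The deposited table of 27423 rows holds estimated counts, since most of its raw count values are not whole. Its deposited normalized counts are on a log2 scale and equal, row by row, log2 of the raw count over 0.971 (male) or 1.03 (female), with results under 0, and raw counts of 0, set to 0.

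Estimated counts were summed by Entrez ID, rounded and scaled by median-of-ratios size factors of 0.970 (male) and 1.03 (female), and 0.5 was added before the log2 ratio. Intervals are Clopper-Pearson for the male share of reads, Poisson for levels and exact conditional odds ratios for gene pairs. They treat reads as independent molecules. A gene was called higher where its mean reached 1 CPM, its fold reached 2 and its interval left out 1. The 5 genes, the lists and the rules were chosen with earlier results of these data known. Named are the 5 genes, their paralogs, up to 4 called genes per list or else its gene with the highest mean, and the 3 nearest in ratio, while photoreceptor, liver and oocyte genes are mostly given as sums. List genes were matched by current RefSeq symbol (assembly GRCz12tu), table symbol or synonym. Neighbours within 200 kb and some further named genes were added after the data were seen. No sequence was analysed here, and a further gene of the set is not reported here. The calculation was tested on simulated counts with counting error only, which cannot show how the intervals fare under the spread between pools. Alternatives were lowess trends (fraction 0.3), scaling by library totals, by edgeR's TMM factors or as in the normalized values, and other added counts, minimum levels and folds. Versions were edgeR 4.0.16 in R 4.3.3, and scipy 1.17.1, numpy 2.4.6, statsmodels 0.14.6, pandas 2.3.3 and matplotlib 3.10.9 in Python 3.11.15.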

Additional observations from a re-analysis of the deposited data

How the results depend on the processing

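No paired analysis was possible because there is 1 library per sex. Over 7 alternatives of scaling, trend and added count, the log2 ratio ranged from 1.47 to 1.68 for emx1, 0.07 to 0.16 for emx2, 2.09 to 2.30 for emx3, 1.58 to 1.67 for tbr1b and 0.98 to 1.07 for eomesa, each within its counting interval. At a minimum of 5 CPM, which emx1 and emx3 miss, 2 of the 5 genes were called higher in the male library and the median was 1.02. At 3-fold, 2 were called. Calls over all genes in the male and female libraries were 59 and 112 at 5 CPM, 319 and 656 with no minimum level, 413 and 899 at 1.5-fold, and 54 and 231 at 3-fold. Some list medians near 0 changed sign. At 5 CPM the median was -0.40 for other T-box genes and -0.0241 for diencephalic factors. Scaled by library totals it was -0.0048 for diencephalic factors, -0.0158 for midbrain factors and -0.0303 for genes of neurons in general. With the expression trend removed it was -0.0110 for midbrain factors and -0.0313 for genes of neurons in general. Without its most extreme gene, an alternative added after seeing the data, it was 0.0736 for olfactory and -0.0174 for neuron genes. In that alternative the pineal median fell from 0.88 to 0.31 and kept its sign. With no minimum level the olfactory median was -0.80, against -0.04 at the 1 CPM minimum, so it moved without a change of sign. The cause of these changes was not tested. Rounding counts down moved no ratio between genes beyond its interval. The few reads of emx1 and emx3 limit the precision of their values.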
